A study of Homo sapiens with 9 samples.

Results

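Transcripts of 5 ligands of the epidermal growth factor (EGF) family, 3 ERBB receptors and 1 receptor inhibitor were measured in HKC-8, an immortalised human kidney proximal tubule cell line. The 9 genes are the ligands AREG, EREG, HBEGF, TGFA and BTC, the receptors EGFR, ERBB2 and ERBB3, and the inhibitor ERRFI1. They were taken by symbol from a table of 20323 genes, which held all 9 of them, and all 9 were among the 13153 genes with enough counts to be tested. The 9 RNA libraries form 3 groups of 3. Wnt1_KP6 cells carried a plasmid for Wnt1, a secreted signalling protein, and also received KP6, a peptide derived from the kidney protein Klotho. Wnt1 cells carried the same plasmid without KP6, and control cells carried the empty vector pcDNA3. Dose, time of collection and the origin of the replicates are not given in the labels. A p-value here sets a group difference against the spread of single samples, and that spread may be technical.

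EGF-family ligands are made as membrane-anchored precursors that metalloproteases such as ADAM17 and ADAM10 cut free. A released ligand binds EGFR, which pairs with itself or with another ERBB receptor and activates the RAS-ERK and PI3K-AKT kinase cascades. The cascade raises transcription of several of its own ligands and of ERRFI1 (MIG6), a cytoplasmic protein that binds the EGFR kinase and shuts it off. In kidney tubules the pathway is known for its part in regeneration after injury and in fibrosis.

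Of the 9 genes, 3 lie together on chromosome 4 (GENCODE release 29, GRCh38, all protein-coding). EREG (ENSG00000124882) spans chr4:74365143-74388751 and AREG (ENSG00000109321) spans chr4:74445134-74455009, both on the plus strand and 56.38 kb apart. BTC (ENSG00000174808) lies at chr4:74744759-74794686 on the minus strand, 289.7 kb from AREG. HBEGF (ENSG00000113070) is at chr5:140332843-140346631 on the minus strand, and ERRFI1 (ENSG00000116285) is at chr1:8004404-8026308 on the minus strand. TGFA is at chr2:70447280-70554193, EGFR at chr7:55019021-55211628, ERBB2 at chr17:39687914-39730426 and ERBB3 at chr12:56076799-56103505. The library kit is not stated to keep strand, and exons of the opposite strand cover 7.41% of ERBB2's exon bases, 3.7% of ERRFI1's and 1.49% of EGFR's, so reads from those neighbours cannot be told apart from reads of these genes there.

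The 150 bases before the RefSeq start site (GRCh38.p14, 5′ to 3′ on the gene's strand) are shown for the 4 genes with the largest differences between the Wnt1_KP6 and control groups. Capitals mark matches to the cyclic AMP response element TGACGTCA or its core TGACG, to the TATA box TATAAA, or to the AP-1 site TGANTCA.
AREG, chr4:74444986-74445135 (+): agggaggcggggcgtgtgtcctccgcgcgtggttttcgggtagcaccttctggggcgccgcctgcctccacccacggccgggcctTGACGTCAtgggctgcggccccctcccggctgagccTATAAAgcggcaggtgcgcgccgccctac
EREG, chr4:74364995-74365144 (+): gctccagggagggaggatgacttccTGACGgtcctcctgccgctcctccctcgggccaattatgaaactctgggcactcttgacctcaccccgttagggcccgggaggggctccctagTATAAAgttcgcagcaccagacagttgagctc
HBEGF, chr5:140346604-140346753 (-): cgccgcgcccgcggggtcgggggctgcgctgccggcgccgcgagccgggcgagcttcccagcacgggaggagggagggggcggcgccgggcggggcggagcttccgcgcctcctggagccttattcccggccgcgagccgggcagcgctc
ERRFI1, chr1:8026310-8026459 (-): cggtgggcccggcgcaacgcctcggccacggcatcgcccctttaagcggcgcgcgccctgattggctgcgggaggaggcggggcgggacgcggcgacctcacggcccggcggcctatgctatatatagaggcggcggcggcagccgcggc
The AREG window held the full element TGACGTCA with its first base at -65 and a TATAAA at -29, counted from the start site. The EREG window held the core TGACG at -125 and a TATAAA at -32. HBEGF and ERRFI1 had no match to these 4 motifs in these windows, and HBEGF held 5 copies of the SP1 box GGGCGG in its 300-base promoter. Searched on both strands over 35116 promoters of 300 bases, TGACGTCA was present in 1.85%, TGACG in 24.6%, TATAAA in 11.5%, TGANTCA in 7.71% and GGGCGG in 45%. The core is contained in the full element, so the AREG match counts under both. The promoters of 8 of the 9 genes were matched in the RefSeq table, all but ERBB3, and none of the 8 held the TCF/LEF site CTTTGAT, present in 2.62% of promoters, or the E-box CACGTG, present in 7.26%. A match is a string of letters and shows no binding.

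Library totals lay between 21199078 and 27507623 expected counts. The first principal component of log2 CPM (counts scaled to library size, with TMM factors) held 38.1% of the variance and separated replicate 1 of all 3 groups from replicates 2 and 3. All libraries carry the same batch label, so what sets replicate 1 apart is not given. Results are therefore shown over all 9 libraries and over replicates 2 and 3 alone. The choice of replicates 2 and 3 came from a split seen in these same data. Their p-values and counts therefore describe those libraries and are no independent support for the results over all 9. WNT1 itself had counts of 1, 2 and 0 in the libraries labelled Wnt1_KP6, 0 in each labelled Wnt1 and 0 in each control, so it gives no check of the plasmid label. A count of 0 over a group of 3 libraries allows up to 0.0413 CPM in Wnt1 and 0.0376 CPM in control. Of 16 proximal tubule markers, 5 had a median over the 9 libraries of at least 1 FPKM (fragments per unit of transcript length and depth). PAX8 and GGT1 were among those 5, while the organic anion transporters SLC22A6 and SLC22A8 were at 0 in all 9 libraries. The summed level of these markers ran from 415 to 438 FPKM in Wnt1_KP6, from 418 to 474 FPKM in Wnt1 and from 333 to 403 FPKM in control. The part of these differences in the results below was not tested.

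Among the ligands, AREG, EREG and HBEGF had their highest levels in replicates 2 and 3 of Wnt1_KP6. AREG (amphiregulin), an EGFR ligand made by injured epithelia, measured 22.6, 187 and 195 CPM in replicates 1, 2 and 3 of Wnt1_KP6, 26.1, 87.8 and 82.9 CPM in Wnt1, and 14.98, 40.5 and 38.4 CPM in control. Replicate 1 was the lowest library of every group, and the groups overlapped. In bulk RNA, fewer cells with a transcript and less of it per cell cannot be told apart. EREG (epiregulin), a ligand of EGFR and ERBB4, measured 109.8, 500.4 and 519 CPM in Wnt1_KP6, 128, 216 and 177 CPM in Wnt1, and 71.3, 186 and 141 CPM in control. HBEGF (heparin-binding EGF-like growth factor), whose precursor is also the diphtheria toxin receptor, measured 5.50, 31.3 and 33.5 CPM in Wnt1_KP6, 7.31, 10.3 and 10.3 CPM in Wnt1, and 4.33, 11.8 and 10.4 CPM in control. For all 3 ligands, replicates 2 and 3 of Wnt1_KP6 lay above each of the other 7 libraries, and replicate 1 of Wnt1_KP6 lay below replicate 1 of Wnt1.

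**Figure D1:**
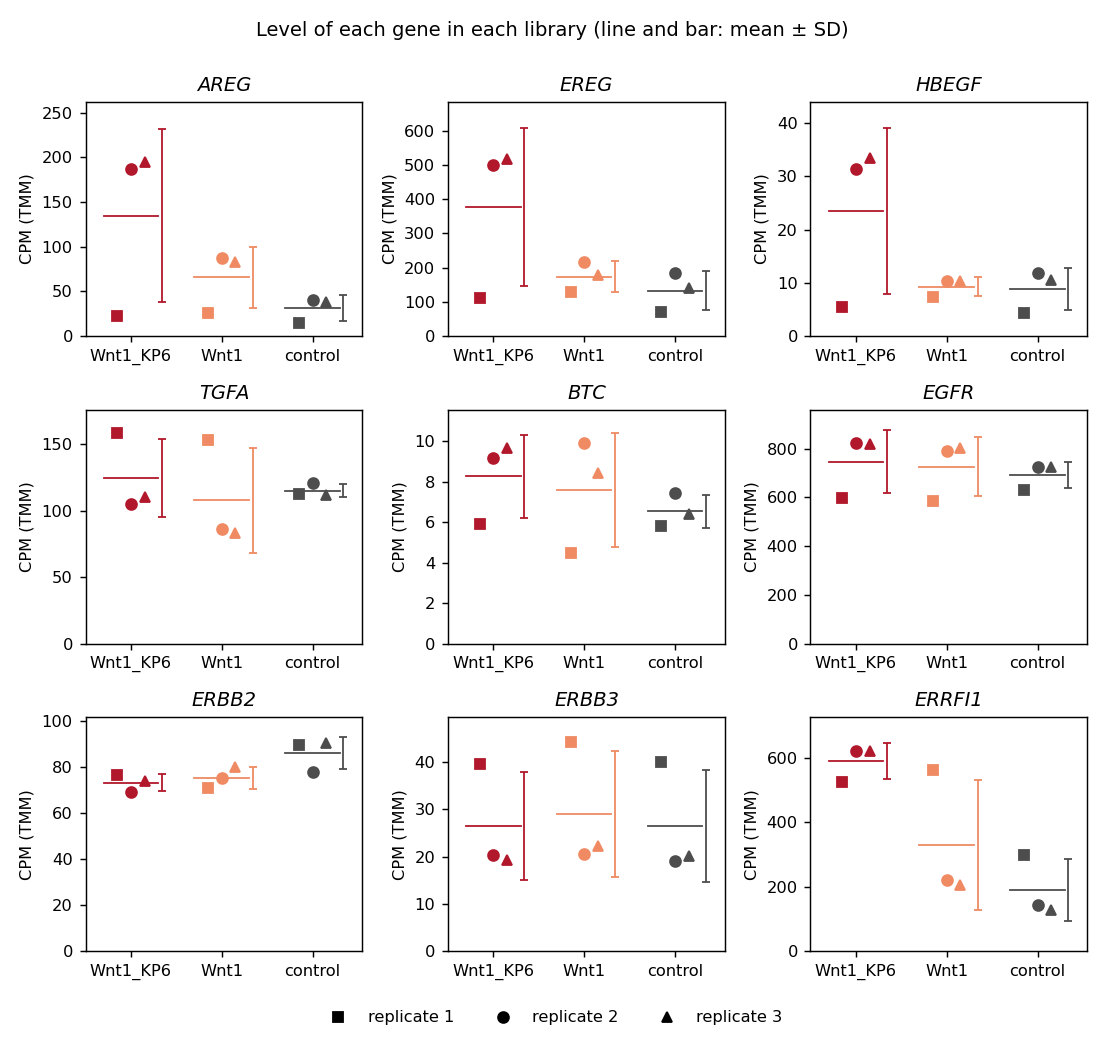
TMM-scaled CPM of the 9 genes (1 panel each, linear axes from 0) in the Wnt1_KP6, Wnt1 and control libraries, with a marker shape for each replicate number, a line for the mean and a bar for the SD (n = 3). In the AREG panel, Wnt1_KP6 replicates 2 and 3 stand at 187 and 195 CPM while replicate 1 stands at 22.6 CPM.

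Between Wnt1_KP6 and either other group, TGFA and BTC differed less than these 3 ligands in the fit to 9 libraries. TGFA (transforming growth factor alpha) measured 159, 105 and 110.3 CPM in Wnt1_KP6, 154, 86.6 and 83.6 CPM in Wnt1, and 113, 121 and 112 CPM in control. Here replicate 1 was the highest library of both plasmid groups, the opposite of AREG, EREG and HBEGF. BTC (betacellulin), a ligand of EGFR and ERBB4, had the lowest mean CPM of the ligands in each group. It measured 5.94, 9.20 and 9.70 CPM in Wnt1_KP6, 4.47, 9.93 and 8.43 CPM in Wnt1, and 5.84, 7.44 and 6.39 CPM in control. In replicate 1 of Wnt1_KP6 and of control, HBEGF lay below BTC.

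The receptors differed less than AREG, EREG or HBEGF did between Wnt1_KP6 and either other group. EGFR measured 597, 823 and 818 CPM in Wnt1_KP6, 587, 790.3 and 804 CPM in Wnt1, and 631, 725 and 724 CPM in control. ERBB2, which has no known ligand of its own and acts as a partner of the others, measured 76.9, 69.3 and 73.9 CPM in Wnt1_KP6, 70.8, 75.2 and 80.3 CPM in Wnt1, and 89.8, 78.2 and 90.5 CPM in control. Every Wnt1_KP6 library lay below every control library for ERBB2. ERBB3, a receptor with a weak kinase that recruits PI3K, measured 39.6, 20.4 and 19.2 CPM in Wnt1_KP6, 44.3, 20.7 and 22.2 CPM in Wnt1, and 40.1, 19.2 and 20.2 CPM in control. Its level followed the replicate number: replicate 1 was the highest library of each group, and the groups overlapped throughout.

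The inhibitor ERRFI1 had its highest level in Wnt1_KP6 replicates 2 and 3. It measured 525, 619.8 and 622 CPM in Wnt1_KP6, 562, 219 and 205 CPM in Wnt1, and 299, 143 and 127 CPM in control. All 3 Wnt1_KP6 libraries lay above all 3 control libraries, whereas replicate 1 of Wnt1 lay among the Wnt1_KP6 libraries.

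In the comparison of Wnt1_KP6 with control, which asks what plasmid and peptide together do, none of the 9 genes passed the threshold over all 9 libraries (edgeR quasi-likelihood test, adjusted p under 0.05 over 13153 genes), where 0.228% of all genes tested were called. At an unadjusted p under 0.05 there were 5 of the 9, against 2076 of all 13153 genes. The 9 genes were chosen with earlier results of these data known. Their counts here and in the comparisons below describe them and are no test of them as a set. ERRFI1 averaged 589 ± 55.2 CPM in Wnt1_KP6 and 189.5 ± 95.1 CPM in control (SD, n = 3 each), a log2 fold change of 1.64 ± 0.45 (SE, edgeR adjusted p = 0.147). AREG averaged 135 ± 97.2 CPM in Wnt1_KP6 and 31.3 ± 14.2 CPM in control, a log2 fold change of 2.11 ± 0.79 (edgeR adjusted p = 0.244). The log2 fold change was 1.505 ± 0.56 for EREG (edgeR adjusted p = 0.244) and 1.40 ± 0.61 for HBEGF (edgeR adjusted p = 0.315). ERBB2 averaged 73.4 ± 3.81 CPM in Wnt1_KP6 and 86.1 ± 6.92 CPM in control, a small difference of -0.23 ± 0.09 on the log2 scale (edgeR adjusted p = 0.269). ERRFI1 and ERBB2 were the 2 of the 9 genes whose libraries did not overlap between these groups, a share to be read against the 16.5% of all genes tested with no overlap. The median log2 fold change of the 9 genes was 0.34, beside -0.01 for all genes tested. TGFA, BTC, EGFR and ERBB3 differed by 0.12 ± 0.24, 0.34 ± 0.30, 0.11 ± 0.16 and -0.0035 ± 0.42 on the log2 scale, within about 1 SE of 0 each.

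Over replicates 2 and 3 alone, 7 of the 9 genes were called between Wnt1_KP6 and control, 6 higher and 1 lower, in a comparison where 40.6% of all genes tested were called (21.1% higher, 19.5% lower). AREG rose by 2.27 ± 0.07 (log2, edgeR adjusted p = 2.09e-11) and ERRFI1 by 2.202 ± 0.07 (edgeR adjusted p = 1.51e-11). EREG rose by 1.64 ± 0.14 (edgeR adjusted p = 7.88e-05) and HBEGF by 1.54 ± 0.10 (edgeR adjusted p = 4.95e-08). BTC and EGFR were higher by 0.45 ± 0.14 and 0.18 ± 0.05, and ERBB2 was lower, at -0.24 ± 0.08 (edgeR adjusted p = 0.0218, 0.0158 and 0.038 in that order). These tests rest on 2 libraries a group, in a subset taken because of a split seen in these same data. Small p-values in it are no independent support, and over all 9 libraries none of the 9 genes passed. The Wnt1_KP6 over control ratios within replicate 1 were smaller for the 4 largest changes, at log2 values of 0.59 for AREG, 0.62 for EREG, 0.34 for HBEGF and 0.81 for ERRFI1, all above 0, and the difference from replicates 2 and 3 was not tested. TGFA was 0.49 in replicate 1 and averaged -0.11 in replicates 2 and 3.

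The calls depended on which libraries were left in. Without Wnt1_KP6 replicate 1, AREG (log2 fold change 2.61, edgeR adjusted p = 0.0413), EREG (1.94, edgeR adjusted p = 0.0266) and HBEGF (1.87, edgeR adjusted p = 0.026) passed against control, in a fit that called 5.2% of genes. Without control replicate 1, ERRFI1 passed (2.13, edgeR adjusted p = 0.0315), where 9.03% of genes were called. With the replicate number as a block, ERRFI1 was at 1.81 ± 0.34 (edgeR adjusted p = 0.0624) and AREG at 1.79 ± 0.34 (edgeR adjusted p = 0.0631). In that fit EREG was at 1.37 ± 0.32 (edgeR adjusted p = 0.0856) and HBEGF at 1.26 ± 0.38 (edgeR adjusted p = 0.138). None of them passed there, where 1.13% of genes were called. Over the 16 alternatives tried, the adjusted p ran from 2.09e-11 to 0.617 for AREG, from 7.88e-05 to 0.627 for EREG, from 4.95e-08 to 0.714 for HBEGF and from 1.51e-11 to 0.481 for ERRFI1, and it passed the threshold in 2, 2, 2 and 3 of the 16. DESeq2 on all 9 libraries called ERRFI1 and none of the other 8 genes (log2 fold change 1.63, DESeq2 adjusted p = 0.0497), and it called 5.12% of all genes.

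**Figure D2:**
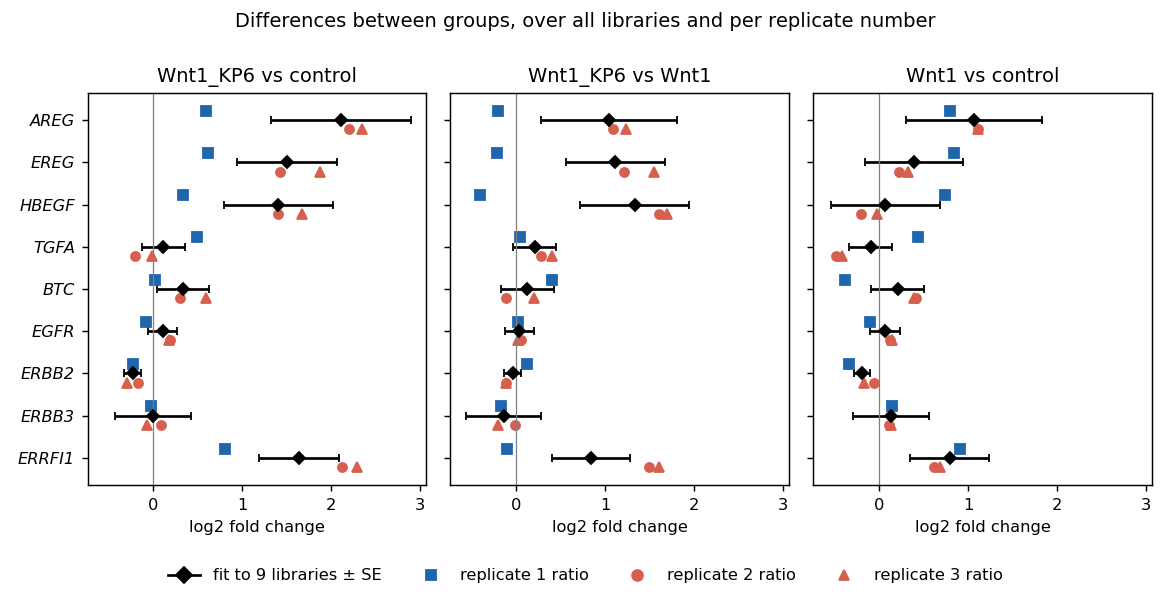
Log2 fold changes of the 9 genes in 3 comparisons: black diamonds are the edgeR fit to 9 libraries with its SE, blue squares the ratio within replicate 1, and red circles and triangles the ratios within replicates 2 and 3. For AREG, EREG, HBEGF and ERRFI1 the replicate 1 ratio is the lowest of each set in Wnt1_KP6 vs control and lies below 0 in Wnt1_KP6 vs Wnt1.

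The comparison of Wnt1_KP6 with Wnt1 sets plasmid cells with and without the peptide side by side. Over all 9 libraries no gene of the 13153 was called (0%), by edgeR, and each of the 9 genes had an edgeR adjusted p of 1. No unadjusted p of the 9 was under 0.05, against 363 such genes in all, and DESeq2 called none of the 9 and 20 genes in all, 0.152% of those tested. The largest log2 fold changes were 1.34 ± 0.61 for HBEGF, 1.11 ± 0.56 for EREG, 1.04 ± 0.76 for AREG and 0.84 ± 0.44 for ERRFI1. None of the 9 had groups without overlap, against 5.81% of all genes tested. In replicates 2 and 3 alone, 5 of the 9 genes were called, all higher in Wnt1_KP6, where 8.62% of all genes tested were called and 6.06% were called higher. As the 9 genes were chosen with earlier results known, this count is no test of them. HBEGF rose by 1.65 ± 0.11 (log2, edgeR adjusted p = 7.15e-08), ERRFI1 by 1.55 ± 0.07 (edgeR adjusted p = 9.81e-10) and EREG by 1.37 ± 0.14 (edgeR adjusted p = 0.000633). AREG rose by 1.16 ± 0.07 (edgeR adjusted p = 3.34e-08), and TGFA by 0.34 ± 0.07 (edgeR adjusted p = 0.00689). Within replicate 1 the log2 ratio of Wnt1_KP6 over Wnt1 was -0.41 for HBEGF, -0.21 for AREG, -0.22 for EREG and -0.10 for ERRFI1. These 4 genes thus had opposite signs in replicate 1 and in replicates 2 and 3. Each replicate 1 ratio sets 1 library against 1 other and has no estimate of error, so its sign alone shows no reversal. Over all genes, Wnt1_KP6 and Wnt1 differed little within replicate 1, with a chi-square per degree of freedom of 3.52. It was 41.8 within replicate 2 and 43.4 within replicate 3. Between replicates 2 and 3 it was 3.36 in Wnt1_KP6 and 3.12 in Wnt1. What keeps these replicate 1 libraries alike was not tested. The receptors stayed within 0.14 of 0 in the fit to 9 libraries, at 0.04 ± 0.16 for EGFR, -0.04 ± 0.09 for ERBB2 and -0.14 ± 0.42 for ERBB3.

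Wnt1 against control sets the Wnt1 plasmid beside the empty vector. None of the 9 genes was called over all libraries by edgeR, where 0.122% of all genes were called, none had an unadjusted p under 0.05, against 1475 of all genes, and DESeq2 called none of the 9 and 2.3% of all genes. The largest log2 fold changes were 1.07 ± 0.77 for AREG (edgeR adjusted p = 0.662) and 0.79 ± 0.44 for ERRFI1 (edgeR adjusted p = 0.55). With 1 library left out, ERRFI1 ran from 0.16 without Wnt1 replicate 1 to 1.29 without control replicate 1, and AREG from 0.73 without control replicate 1 to 1.45 without Wnt1 replicate 1. None of the 9 had groups without overlap, against 16.5% of all genes tested. HBEGF differed by 0.07 ± 0.61 and EREG by 0.39 ± 0.55. With replicate 1 left out of every group, 4 of the 9 genes were called, 3 higher and 1 lower, where 31.6% of all genes were called (16.3% higher, 15.3% lower). AREG rose by 1.11 ± 0.07 (log2, edgeR adjusted p = 7.68e-08), ERRFI1 by 0.65 ± 0.07 (edgeR adjusted p = 6.53e-06) and BTC by 0.40 ± 0.14 (edgeR adjusted p = 0.0437). TGFA fell, with a log2 fold change of -0.45 ± 0.07 (edgeR adjusted p = 0.000309), while its ratio within replicate 1 was 0.44. Within replicate 1 the ratio was 0.80 for AREG, 0.84 for EREG, 0.75 for HBEGF and 0.91 for ERRFI1. The 3 comparisons share libraries, so their values are not independent of each other.

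Levels per length, in the authors' FPKM, allow the 9 genes to be set in order. In Wnt1_KP6 the order was ERRFI1 (198 ± 8.58 FPKM), AREG (104 ± 73.6), EREG (77.6 ± 46.2), EGFR (73.6 ± 9.04), TGFA (36.9 ± 10.3), ERBB2 (16.9 ± 1.43), HBEGF (9.45 ± 6.13), ERBB3 (6.37 ± 2.82) and BTC (3.16 ± 0.775; all SD, n = 3). In Wnt1 it was ERRFI1 (116 ± 74.0 FPKM), EGFR (74.5 ± 10.6), AREG (53.2 ± 27.3), EREG (37.8 ± 9.12), TGFA (33.8 ± 12.9), ERBB2 (18.5 ± 1.16), ERBB3 (7.17 ± 3.10), HBEGF (3.96 ± 0.677) and BTC (2.95 ± 1.13). In control it was EGFR (71.9 ± 4.37 FPKM), ERRFI1 (68.3 ± 34.8), TGFA (37.5 ± 1.32), EREG (29.3 ± 12.5), AREG (25.8 ± 11.4), ERBB2 (22.05 ± 2.24), ERBB3 (6.53 ± 2.92), HBEGF (3.83 ± 1.68) and BTC (2.63 ± 0.233). Among neighbours in this order, AREG, EREG and EGFR overlapped in Wnt1_KP6, and ERRFI1 down to TGFA overlapped from one to the next in Wnt1. In control EGFR overlapped ERRFI1, TGFA overlapped EREG, EREG overlapped AREG, and AREG overlapped ERBB2. HBEGF overlapped ERBB3 in Wnt1_KP6 and in control, and BTC in Wnt1 and in control.

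Summed over the 5 ligands, the level was 96.5, 292 and 303 FPKM in replicates 1, 2 and 3 of Wnt1_KP6, 104, 151 and 140.5 FPKM in Wnt1, and 69.6, 121 and 106 FPKM in control. The sums of the 3 receptors averaged 96.9 ± 4.92 FPKM in Wnt1_KP6, 100.2 ± 8.59 FPKM in Wnt1 and 100.5 ± 0.896 FPKM in control (SD, n = 3 each). The make-up of the ligand pool also split by replicate number. TGFA gave 50.6% of ligand FPKM in replicate 1 of Wnt1_KP6, 47.0% in replicate 1 of Wnt1 and 52.2% in replicate 1 of control. In replicates 2 and 3 its share was 10.8% and 10.03% in Wnt1_KP6, 17.0% and 19.4% in Wnt1, and 32.1% and 35.1% in control. AREG gave 48.8% and 49.2% there in Wnt1_KP6, 46.7% and 47.9% in Wnt1, and 27.6% and 29.4% in control. EGFR gave 66.1% to 79.8% of receptor FPKM over the 9 libraries.

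**Figure D3:**
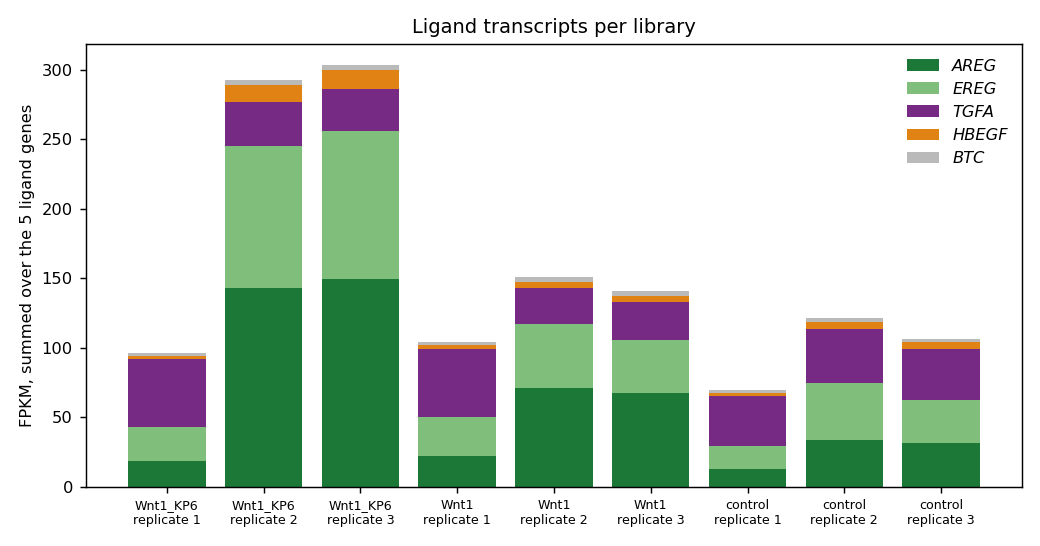
Deposited FPKM of AREG, EREG, TGFA, HBEGF and BTC stacked for each of the 9 libraries (axis from 0). The stacks of Wnt1_KP6 replicates 2 and 3 reach 292 and 303 FPKM, and in replicate 1 of every group the purple TGFA segment is about as tall as the other 4 together.

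Across the 9 libraries, log2 CPM of AREG, EREG and HBEGF ran together, with Pearson's r of 0.96 for AREG with EREG, 0.98 for EREG with HBEGF and 0.93 for AREG with HBEGF. TGFA had negative values with all 3, at -0.57 with AREG, -0.36 with EREG and -0.34 with HBEGF, and ERBB3 ran against EGFR at -0.91. ERRFI1 had lower values with these ligands, at 0.23 with AREG, 0.34 with EREG and 0.27 with HBEGF. These are descriptions of 9 points that share the split of replicate 1 from replicates 2 and 3 and the group differences. Among 10582 protein-coding genes with a mean of at least 5 CPM, the profiles most like HBEGF were those of TIPARP (r = 0.994), H3-3B (0.985) and DUSP14 (0.983). Those most like AREG were SRSF4 (0.996), BYSL (0.986) and VCP (0.985), and those most like EREG were KLF5 (0.984), DUSP14 (0.984) and HBEGF (0.982). EGFR was most like PCNT (0.994), RPP40 (0.992) and SEMA6A (0.991), and ERRFI1 most like PHLDA1 (0.984), SOX9 (0.967) and PIM1 (0.967).

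The proteases that release the ligands were measured too, in a list of 16 other ligands, ERBB4 and shedding genes, 11 of them tested. ADAM10, the main sheddase of BTC, measured 168, 165 and 165 CPM in Wnt1_KP6, 171, 152 and 158 CPM in Wnt1, and 229.8, 268 and 237 CPM in control. All 6 libraries with the Wnt1 plasmid lay below all 3 control libraries. Of all genes tested, 16.5% had groups without overlap in Wnt1_KP6 vs control and 16.5% in Wnt1 vs control. Its log2 fold change was -0.56 ± 0.09 in Wnt1_KP6 vs control (edgeR adjusted p = 0.0527) and -0.61 ± 0.09 in Wnt1 vs control (edgeR adjusted p = 0.0651). With the replicate number as a block, ADAM10 passed in both, at an edgeR adjusted p of 0.039 where 1.13% of genes were called and of 0.0361 where 0.722% were called. Over 16 alternatives its adjusted p ran from 7.29e-07 to 0.306 in Wnt1_KP6 vs control, passing in 5, and from 7.07e-08 to 0.37 in Wnt1 vs control, passing in 7. ADAM17, the main sheddase of AREG, EREG, HBEGF and TGFA, measured 217, 251 and 250.4 CPM in Wnt1_KP6, 227, 237 and 235 CPM in Wnt1, and 217, 163 and 154 CPM in control. Its log2 fold change was 0.43 ± 0.13 in Wnt1_KP6 vs control (edgeR adjusted p = 0.176) and 0.39 ± 0.13 in Wnt1 vs control (edgeR adjusted p = 0.326). The other members of the list with the smallest p were NRDC, an ADAM cofactor, at 0.17 ± 0.12 and 0.16 ± 0.12 in the same comparisons. Between Wnt1_KP6 and Wnt1 they were ADAM10 at 0.05 ± 0.09, ADAM19 at 0.07 ± 0.17 and FRMD8, a partner of the ADAM17 regulators, at -0.07 ± 0.18. By edgeR without the block no gene of the list was called over all libraries. DESeq2 called 1, ADAM10, in each comparison with control and none against Wnt1. An unadjusted edgeR p under 0.05 was found for 2, 0 and 2 in Wnt1_KP6 vs control, Wnt1_KP6 vs Wnt1 and Wnt1 vs control. Of all 13153 genes tested, 2076, 363 and 1475 had such a p in that order, and DESeq2 called 5.12%, 0.152% and 2.3%. Over replicates 2 and 3 alone, 2 of the 11 were called higher and 4 lower in Wnt1_KP6 vs control, where 40.6% of all genes tested were called. In that fit none was called against Wnt1 (8.62% of all genes), and 2 were called higher and 4 lower in Wnt1 vs control (31.6% of all genes).

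Downstream of the receptors, 20 transcripts known to be induced by ERK were all tested, and 0 were called in each comparison over all libraries by edgeR. At an unadjusted edgeR p under 0.05 there were 12 of the 20 in Wnt1_KP6 vs control, 10 against Wnt1 and 2 for Wnt1 vs control. DESeq2 called 10, 2 and 0 of them. Of all 13153 genes tested, 2076, 363 and 1475 had such a p in that order, and DESeq2 called 5.12%, 0.152% and 2.3%. Over replicates 2 and 3 alone, 17 of the 20 were called higher and 0 lower in Wnt1_KP6 vs control, 13 higher and 1 lower in Wnt1_KP6 vs Wnt1, and 11 higher and 2 lower in Wnt1 vs control. Of all genes tested in that fit, 21.1% were called higher and 19.5% lower in Wnt1_KP6 vs control, 6.06% and 2.56% against Wnt1, and 16.3% and 15.3% for Wnt1 vs control. The list was chosen with earlier results of these data known, so these counts beside the shares describe it and are no test of it. The median log2 ratio of the 20 in Wnt1_KP6 vs control was 0.58 within replicate 1 and 1.59 in replicates 2 and 3. Against Wnt1 it was -0.08 within replicate 1 and 1.34 in replicates 2 and 3, and for Wnt1 vs control 0.65 and 0.32. For all genes tested these medians lay between -0.01 and 0.02. DUSP5, a nuclear phosphatase of ERK, measured 67.9, 274 and 273 CPM in Wnt1_KP6, 85.8, 33.0 and 38.7 CPM in Wnt1, and 32.4, 11.7 and 10.5 CPM in control. Its log2 fold change was 3.49 ± 0.69 in Wnt1_KP6 vs control (edgeR adjusted p = 0.0766) and 1.53 ± 0.65 in Wnt1 vs control (edgeR adjusted p = 0.426). FOS, an AP-1 subunit, measured 5.62, 97.9 and 101 CPM in Wnt1_KP6, 6.10, 5.79 and 4.76 CPM in Wnt1, and 3.55, 1.28 and 1.16 CPM in control, with log2 fold changes of 5.08 ± 1.00 against control (edgeR adjusted p = 0.0766) and 3.62 ± 0.91 against Wnt1 (edgeR adjusted p = 1). As with HBEGF, AREG and EREG, replicate 1 of Wnt1_KP6 stayed near replicate 1 of Wnt1. MAFF, a small MAF transcription factor, was at 2.56 ± 0.50 in Wnt1_KP6 vs control (edgeR adjusted p = 0.0766). Against Wnt1, IER2 was at 1.53 ± 0.38 and SPRY2, an inhibitor of the receptor cascade, at 1.34 ± 0.35 (edgeR adjusted p = 1 for both). These are among the smallest p of the list. In that comparison the 20 ran from -0.21 to 3.88, with 16 above 0 and 4 below, where 50.3% of all genes tested lay above 0. In Wnt1 vs control, PHLDA1 was at 0.96 ± 0.38 and the ERK phosphatase DUSP6 at 0.92 ± 0.45 (edgeR adjusted p = 0.39 and 0.494 in that order). Without Wnt1 replicate 1 they were at 0.36 and 0.55, and without control replicate 1 at 1.23 and 1.66, in a fit that called 6.62% of all genes in Wnt1 vs control and where DUSP6 had an edgeR adjusted p of 0.0217 and PHLDA1 of 0.14.

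The genes that act between receptor and transcription had log2 fold changes mostly near 0. Of 22 adaptors, turnover genes and inhibitors, 21 were tested, none was called over all libraries by edgeR, and the median log2 fold changes were 0.01 for Wnt1_KP6 against control, 0.01 for Wnt1_KP6 against Wnt1 and 0.05 for Wnt1 against control. Over replicates 2 and 3 alone, 5 were called higher and 2 lower in Wnt1_KP6 vs control, 1 and 1 in Wnt1_KP6 vs Wnt1, and 3 and 2 in Wnt1 vs control, of 21 each. In those comparisons 40.6%, 8.62% and 31.6% of all genes tested were called, so the list lies near or below the share of all genes. The smallest p were those of STAM, which sorts ubiquitinated receptors, at 0.35 ± 0.11 in Wnt1_KP6 vs control (edgeR adjusted p = 0.176) and 0.19 ± 0.11 in Wnt1 vs control, and of SOS1, the RAS exchange factor, at -0.27 ± 0.10 in both. LRIG2 was at -0.29 ± 0.18 in Wnt1_KP6 vs control and -0.35 ± 0.18 in Wnt1_KP6 vs Wnt1, and SOCS4 at -0.21 ± 0.11 in Wnt1 vs control. LRIG1, which promotes receptor degradation, was at -0.74 ± 0.31 and SOCS5 at 0.23 ± 0.15 in Wnt1_KP6 vs Wnt1 (edgeR adjusted p = 1 for both). LRIG1 was scarce, with means of 0.98 CPM in Wnt1_KP6 and 1.64 CPM in Wnt1. Of 20 RAS-ERK and PI3K-AKT kinase genes, all tested, none was called over all libraries by edgeR, and the medians were 0.04, 0.01 and -0.01 for Wnt1_KP6 vs control, Wnt1_KP6 vs Wnt1 and Wnt1 vs control. Without replicate 1 of every group, 3 were called higher and 3 lower, 1 and 0, and 3 and 4 in the same 3 comparisons, of 20 each. These counts too lie near or below the 40.6%, 8.62% and 31.6% of all genes called. MAPK3, which encodes ERK1, was at 0.27 ± 0.10 in Wnt1_KP6 vs control and 0.26 ± 0.10 in Wnt1 vs control. RASA1, a RAS GTPase-activating protein, was at -0.37 ± 0.18 and -0.40 ± 0.18 there, and PIK3CB at -0.36 ± 0.17 in Wnt1 vs control. Between Wnt1_KP6 and Wnt1 the smallest p were those of PIK3CB at 0.20 ± 0.17, NRAS at 0.09 ± 0.11 and BRAF at 0.12 ± 0.16.

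**Figure D4:**
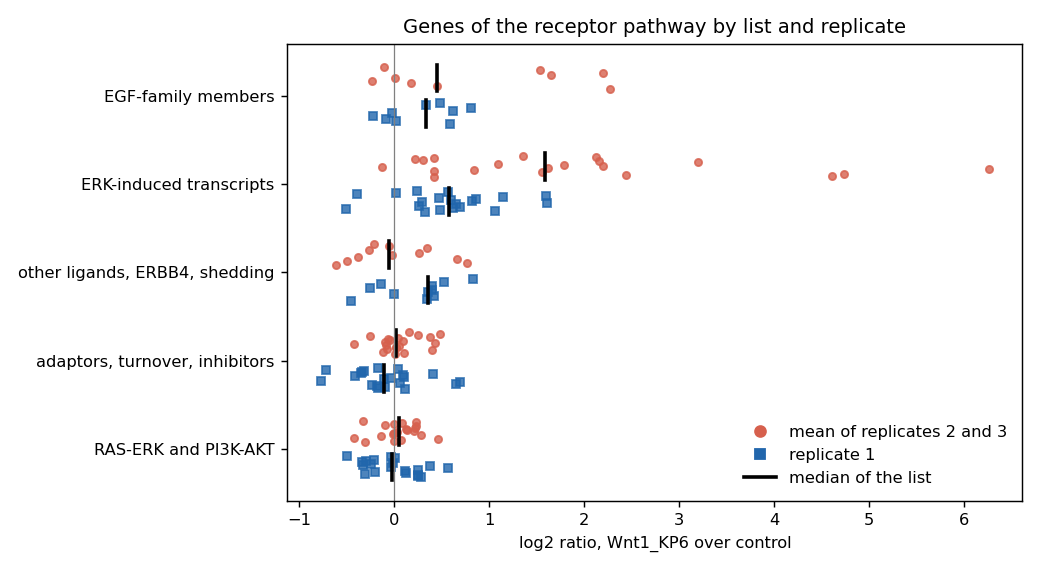
Log2 ratio of Wnt1_KP6 over control for the 9 EGF-family genes and 4 lists of the receptor pathway, with the mean of replicates 2 and 3 as red circles, replicate 1 as blue squares and a bar at each list's median. The 20 ERK-induced transcripts have medians of 1.59 in replicates 2 and 3 and 0.58 in replicate 1, and the kinase, adaptor and shedding lists have medians from -0.11 to 0.36.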

How the data were processed

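Bulk RNA was sequenced from 9 HKC-8 libraries in 3 groups of 3, taken from the treatment labels. Per the labels' protocols, poly(A) RNA was captured with oligo(dT) and prepared with NEBNext Ultra reagents. Among the tools that the submitters' processing notes list are RSEM, StringTie 1.3.1, HISAT2, fastp 0.18.0 and Bowtie2 2.2.8, with build hg38, and the annotation used for counting is not given. What the authors deposited, per the file headers, is, per gene, a pair of values in every library: an expected count (an estimate that can be fractional) and an FPKM.

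Here expected counts were rounded, filtered with filterByExpr (minimum count 10, minimum total 15), scaled by TMM and fitted in edgeR 4.0.16 (R 4.3.3) with 3 group means over all 9 libraries. The quasi-likelihood tests were two-sided and Benjamini-Hochberg adjusted over 13153 genes at 0.05. The code was also run on simulated counts. Those counts lack the split of replicate 1 from replicates 2 and 3, so they do not measure power or error in these data. Alternatives were DESeq2 1.42.0, RLE factors, no filter, a replicate block, replicates 2 and 3 alone, limma 3.58.1 on log2(FPKM + 1) and log2(FPKM + 0.1), and each library left out. Same-numbered libraries of different groups, numbered in their titles, deviated together from their group means (correlation across genes 0.11 to 0.67 in all 9 pairs). Differently numbered libraries among replicates 2 and 3 correlated at 0.15 to 0.40, and replicate 1 with replicates 2 and 3 of another group at -0.55 to -0.22. No replicate pair agreed within sampling noise, so none was merged.

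The genes and lists were chosen with earlier results of these data known. The 9 genes are named in every comparison, from each other list the 3 with the smallest p or any called, and for 5 of the 9 genes the 3 most similar profiles. Of the list genes that this rule names, 1 is not reported here. Gene IDs were matched to GENCODE 29 (20171 of 20323), and promoters come from RefSeq.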

Additional observations from a re-analysis of the deposited data

How the results depend on the processing

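The number of genes called varied with the method. In Wnt1_KP6 vs control edgeR called 30 genes over all libraries, DESeq2 674, the fit with a replicate block 149, replicates 2 and 3 alone 5293, and limma 11 on log2(FPKM + 1) and 19 on log2(FPKM + 0.1). In Wnt1_KP6 vs Wnt1 the counts were 0 by edgeR, 20 by DESeq2, 0 with the replicate block and 1124 in replicates 2 and 3 alone. In Wnt1 vs control they were 16 by edgeR, 302 by DESeq2, 95 with the replicate block and 4115 in replicates 2 and 3 alone. Of the 9 EGF-family genes, replicates 2 and 3 alone gave 7, 5 and 4 calls in the same order of comparisons, DESeq2 gave 1 in Wnt1_KP6 vs control, and the replicate block gave 0 in each. RLE factors and no filter on low counts changed no call of the 9 and moved no count of genes by over 1.5 times. The cause of these differences was not tested.

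Leaving out 1 library gave 0 to 1198 genes in Wnt1_KP6 vs control, 0 to 214 in Wnt1_KP6 vs Wnt1 and 0 to 879 in Wnt1 vs control, and 0 to 3, 0 to 0 and 0 to 0 of the 9 genes. The count in Wnt1_KP6 vs control was 1198 without control replicate 1, 692 without Wnt1_KP6 replicate 1, 43 without Wnt1 replicate 1, 2 without Wnt1 replicate 2, and 0 without Wnt1 replicate 3 or replicate 2 or 3 of control or Wnt1_KP6. In Wnt1_KP6 vs Wnt1 it was 214 without Wnt1_KP6 replicate 1 and 0 without any other library. In Wnt1 vs control it was 879 without control replicate 1, 43 without Wnt1_KP6 replicate 1, 6 and 5 without Wnt1 replicates 1 and 2, 4 without Wnt1_KP6 replicate 2 or 3, and 0 without control replicate 2 or 3 or Wnt1 replicate 3.

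Some log2 fold changes near 0 changed sign, none of them called over all 9 libraries. TGFA in Wnt1_KP6 vs control was -0.11 in replicates 2 and 3 alone and -0.055 and -0.0571 with limma at pseudocounts of 1 and 0.1, and HBEGF in Wnt1 vs control was -0.11 in replicates 2 and 3 alone. EGFR in Wnt1_KP6 vs Wnt1 was -0.014 with limma at both pseudocounts. ERBB3 in Wnt1_KP6 vs control was 0.0014 with the replicate block and 0.010 in replicates 2 and 3 alone. With 1 library left out, TGFA ran from -0.094 to 0.22 in Wnt1_KP6 vs control, from -0.00055 to 0.55 in Wnt1_KP6 vs Wnt1 and from -0.44 to 0.056 in Wnt1 vs control. ERBB3 ran from -0.42 to 0.43, from -0.55 to 0.30 and from -0.31 to 0.57 in the same comparisons. In Wnt1_KP6 vs Wnt1, BTC ran from -0.15 to 0.36, EGFR from -0.10 to 0.18 and ERBB2 from -0.083 to 0.0076. In Wnt1 vs control, HBEGF ran from -0.26 to 0.33, BTC from -0.027 to 0.48 and EGFR from -0.015 to 0.20. Of the other pathway genes named, whose alternatives were added after seeing the data, BRAF in Wnt1_KP6 vs Wnt1 was -0.0192 and -0.0205 with limma at pseudocounts of 1 and 0.1, and FRMD8 there ran from -0.31 to 0.059 with 1 library left out.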
